A study of Rattus norvegicus with 54 samples.

Results

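In all, 7 glutathione transferase genes were followed: Mgst1, Mgst3, Gsta1, Gsta4, Gstm1, Gstp1 and Gstt1. They are the rows of the count table that carry these 7 gene names, out of 45785 rows with a gene name, and every member passed the filter on low counts in every fit. The family was chosen by a measured value of the same libraries, the higher Mgst1 counts at postnatal day 90 (P90) than at P42 in control males. The values of that contrast are therefore given as a description with no test, and so is Mgst1 in every comparison that holds the control males.

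Glutathione transferases join the tripeptide glutathione to reactive, electron-poor compounds, which makes these more soluble and ready for export from the cell. The cytosolic enzymes are grouped into classes named alpha (Gsta genes), mu (Gstm), pi (Gstp) and theta (Gstt), while the Mgst genes encode a separate family of membrane-bound enzymes. Several also reduce lipid hydroperoxides, the oxidised fats that form when cells are under oxidative stress, and part of the family is switched on by the transcription factor Nrf2 (gene Nfe2l2) through antioxidant response elements. In the rodent brain, mu-class enzymes are known mainly from astrocytes and the pi-class enzyme from mature oligodendrocytes.

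RNA was sequenced in bulk from the nucleus accumbens, the ventral part of the striatum, of Long Evans rats of both sexes, to compare development and alcohol history. PAE marks ethanol before birth and FCL a free-choice liquid diet in its place. AAE marks alcohol in adolescence and VEH water in its place. At P90, in adulthood, there were 5 female and 6 male libraries of PAE-AAE, against 8 female and 6 male libraries of FCL-VEH. At P42, after the last adolescent treatment, there were 4 female and 9 male libraries of PAE-VEH, against 7 female and 9 male libraries of FCL-VEH. Pair-fed animals were not analysed here, and the labels give no dose, blood alcohol or litter. No adult group had only 1 of the exposures, so that in adults ethanol before birth and alcohol in adolescence cannot be told apart. PAE-AAE at P90 differs from PAE-VEH at P42 by age and by adolescent alcohol together, which cannot be told apart either.

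The 54 libraries held between 58848145 and 103485677 counts each, with a median of 72196376. Drd1, the dopamine receptor of one class of spiny neurons, ran from 115.3 to 473 CPM, counts scaled to a common library size. Ppp1r1b, the DARPP-32 gene of spiny neurons, ran from 569 to 2778 CPM, so that every library held these spiny neuron markers. Markers of other cells also varied between libraries. The cortical excitatory neuron marker Slc17a7 ran from 4.15 to 1185 CPM, the choroid plexus marker Ttr from 3.08 to 3759 CPM and the ependymal marker Foxj1 from 3.38 to 179.5 CPM. In 3 libraries the levels of Xist and of Y-linked genes went against the labelled sex (replicate 5 of PAE-VEH males at P42, replicate 8 of FCL-VEH males at P42 and replicate 5 of FCL-VEH females at P42). Another 4 libraries stood apart from their group over all genes: replicate 6 of PAE-AAE males at P90, replicate 6 of PAE-VEH males at P42, replicate 1 of FCL-VEH females at P90 and replicate 3 of FCL-VEH males at P90. Calls are given with all libraries, and members' calls that were lost or gained without these libraries are given beside them. In bulk tissue, fewer cells of a type and less RNA per cell cannot be told apart.

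In the table's coordinates, which are those of the rat assembly GRCr8, each member is a protein-coding gene that no other annotated gene overlaps. Mgst1 lies on chromosome 4 at 172760930 to 172776157 and Mgst3 on chromosome 13 at 82059480 to 82080418. Gsta1 lies on chromosome 9 at 31199887 to 31216606 and Gsta4 on chromosome 8 at 87947247 to 87964490. Gstm1 lies on chromosome 2 at 198338005 to 198346007, Gstp1 on chromosome 1 at 210767237 to 210770242 and Gstt1 on chromosome 20 at 12856068 to 12873020. The gene named Gsta1 here also carries the older names Gsta3 and Yc1 in RefSeq, and a separate row of the table is called Gsta3. Gsta1, Gstm1 and Gstt1 each have close relatives in the same chromosomal cluster, so their counts are uncertain to the extent that reads were shared between near-identical copies.

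The sequences before the start of the 3 members with a call in at least 1 tested comparison are shown because they differ in the motifs they hold. Each is the 250 bases before the start that RefSeq's GRCr8 promoter table uses, written 5′ to 3′ along the gene's own strand, with motif matches in capitals. The Mgst1 window is chr4:172760680-172760929 on the plus strand. The Gsta1 window is chr9:31216533-31216782 and the Gstp1 window chr1:210769706-210769955, both on the minus strand, and these starts lie inside the longer gene span of the count table.
Mgst1: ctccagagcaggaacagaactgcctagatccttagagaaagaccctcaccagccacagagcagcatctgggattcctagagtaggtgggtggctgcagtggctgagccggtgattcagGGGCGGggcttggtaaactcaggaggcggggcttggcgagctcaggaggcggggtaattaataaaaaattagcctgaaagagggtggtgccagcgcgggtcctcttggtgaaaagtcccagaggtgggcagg
Gsta1: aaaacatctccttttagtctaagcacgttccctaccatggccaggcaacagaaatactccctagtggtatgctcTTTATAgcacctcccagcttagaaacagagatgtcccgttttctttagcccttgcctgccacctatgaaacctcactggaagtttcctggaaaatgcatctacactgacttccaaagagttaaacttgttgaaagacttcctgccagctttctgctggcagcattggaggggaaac
Gstp1: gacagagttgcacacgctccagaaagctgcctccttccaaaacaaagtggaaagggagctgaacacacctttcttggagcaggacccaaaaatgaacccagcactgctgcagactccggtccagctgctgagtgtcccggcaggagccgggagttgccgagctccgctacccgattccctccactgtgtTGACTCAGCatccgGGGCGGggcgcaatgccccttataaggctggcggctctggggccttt

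Altogether 3 motifs were searched on both strands in the 250 bases of the 6 members found in the promoter table, in which Gstt1 had no entry. The core of the antioxidant response element, TGACNNNGC, was present in the Gstp1 window as TGACTCAGC, beginning 61 bases before the start, and in 3373 of all 33469 promoters of the table (10.1%). The GC box GGGCGG was present in Mgst1, Mgst3, Gsta4 and Gstp1 and in 30.5% of all promoters, and the match in Gstp1 lies 47 bases before the start. The letters TATAAA were present in Gstm1, 29 bases before the start, and on the opposite strand in Gsta1, beginning 176 bases before it, and in 12.9% of all promoters. None of these matches overlap. A match describes letters in a window and does not show that a factor binds there.

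Levels of different genes were set side by side as deposited FPKM, which are corrected for gene length. Among 30 glutathione transferase and related membrane-family genes of the table, Gstp1 was the third highest with a median of 80.4 FPKM over the 54 libraries, and its range was 56.2 to 164 FPKM. Only Gstm7 (86.5 FPKM) and Gstm5 (80.5 FPKM), both mu-class genes, had higher medians. Mgst3, whose enzyme has leukotriene C4 synthase and peroxidase activity, had a median of 56.6 FPKM, and Gstm1 one of 49.9 FPKM. Gsta1 followed at 20.5 FPKM, Mgst1, which sits in the endoplasmic reticulum and outer mitochondrial membranes, at 11.7 FPKM, and Gsta4, whose enzyme prefers hydroxyalkenals from lipid oxidation, at 6.66 FPKM. Gstt1, which acts on small halogenated compounds among others, was the lowest of the 7 at 1.01 FPKM and ranked 20 of the 30 genes. From Gstp1 down to Gsta4 each member's range overlapped that of the next, while the highest Gstt1 value of 1.78 FPKM lay below the lowest Gsta4 value of 2.96 FPKM.

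**Figure D1:**
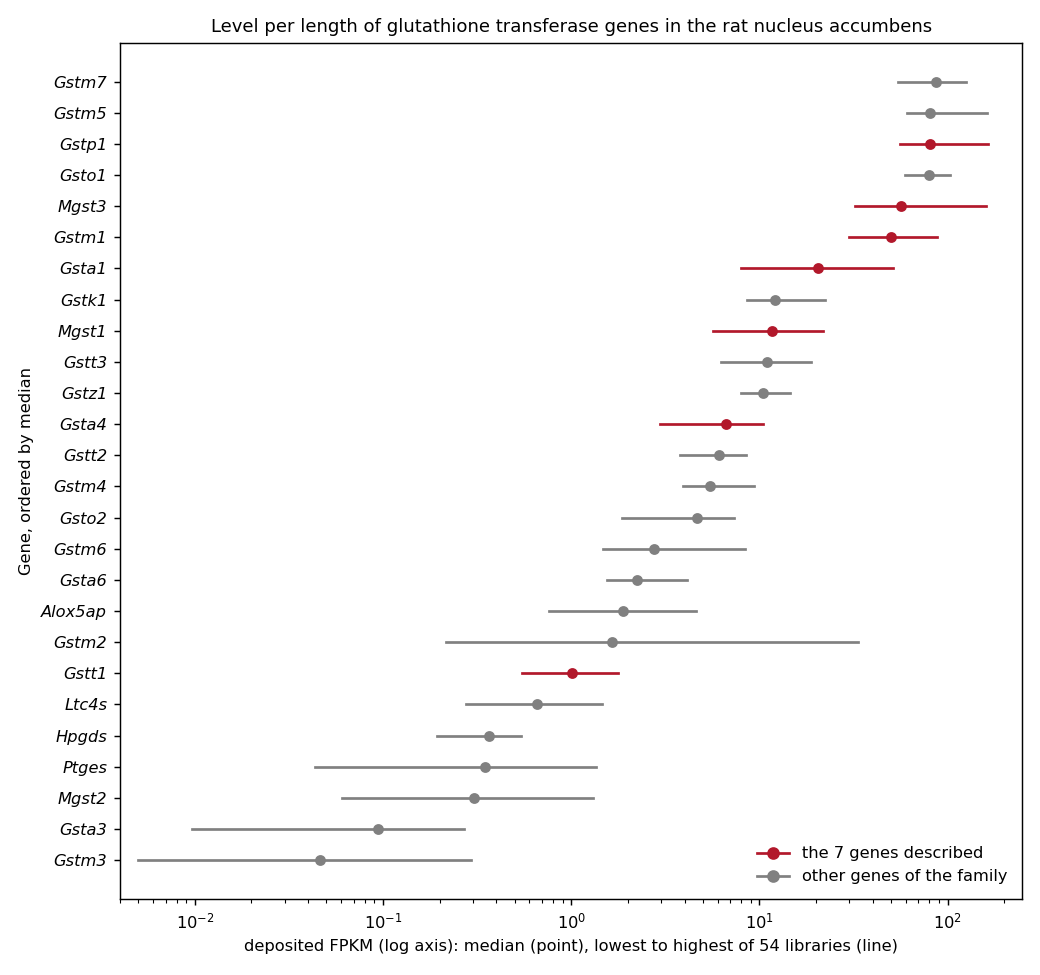
Deposited FPKM (horizontal log axis) of the family's genes with a median above 0, ordered by median, with points for medians and lines from the lowest to the highest of 54 libraries; the lowest value of Gstm3 is 0 and is drawn at the left end. The 7 genes described run from 80.4 FPKM for Gstp1 to 1.01 FPKM for Gstt1, and 4 further genes with a median of 0 are not drawn.

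Within a gene, values are CPM with library sizes scaled by the trimmed mean of M values (TMM). Gsta1 varied most among libraries, with a highest CPM 6.51 times the lowest, and Gstm1 and Gstp1 least, at 2.91 and 2.95 times. Within groups the SD on the log2 scale ran from 0.25 for Gstp1 to 0.377 for Gsta1. The order of the 8 group means was headed by FCL-VEH males at P90 for Mgst3, Gsta1, Gsta4, Gstm1 and Gstp1, and by PAE-AAE females at P90 for Mgst1 and Gstt1. Neighbours in these orders differed by less than the larger of their 2 SDs in every case except 1, the gap for Mgst1 between PAE-VEH females at P42 and FCL-VEH males at P42, which held the lowest mean. The FCL-VEH males at P42 and P90 are the groups whose Mgst1 values chose the members, so nothing is read from their places in these orders.

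**Figure D2:**
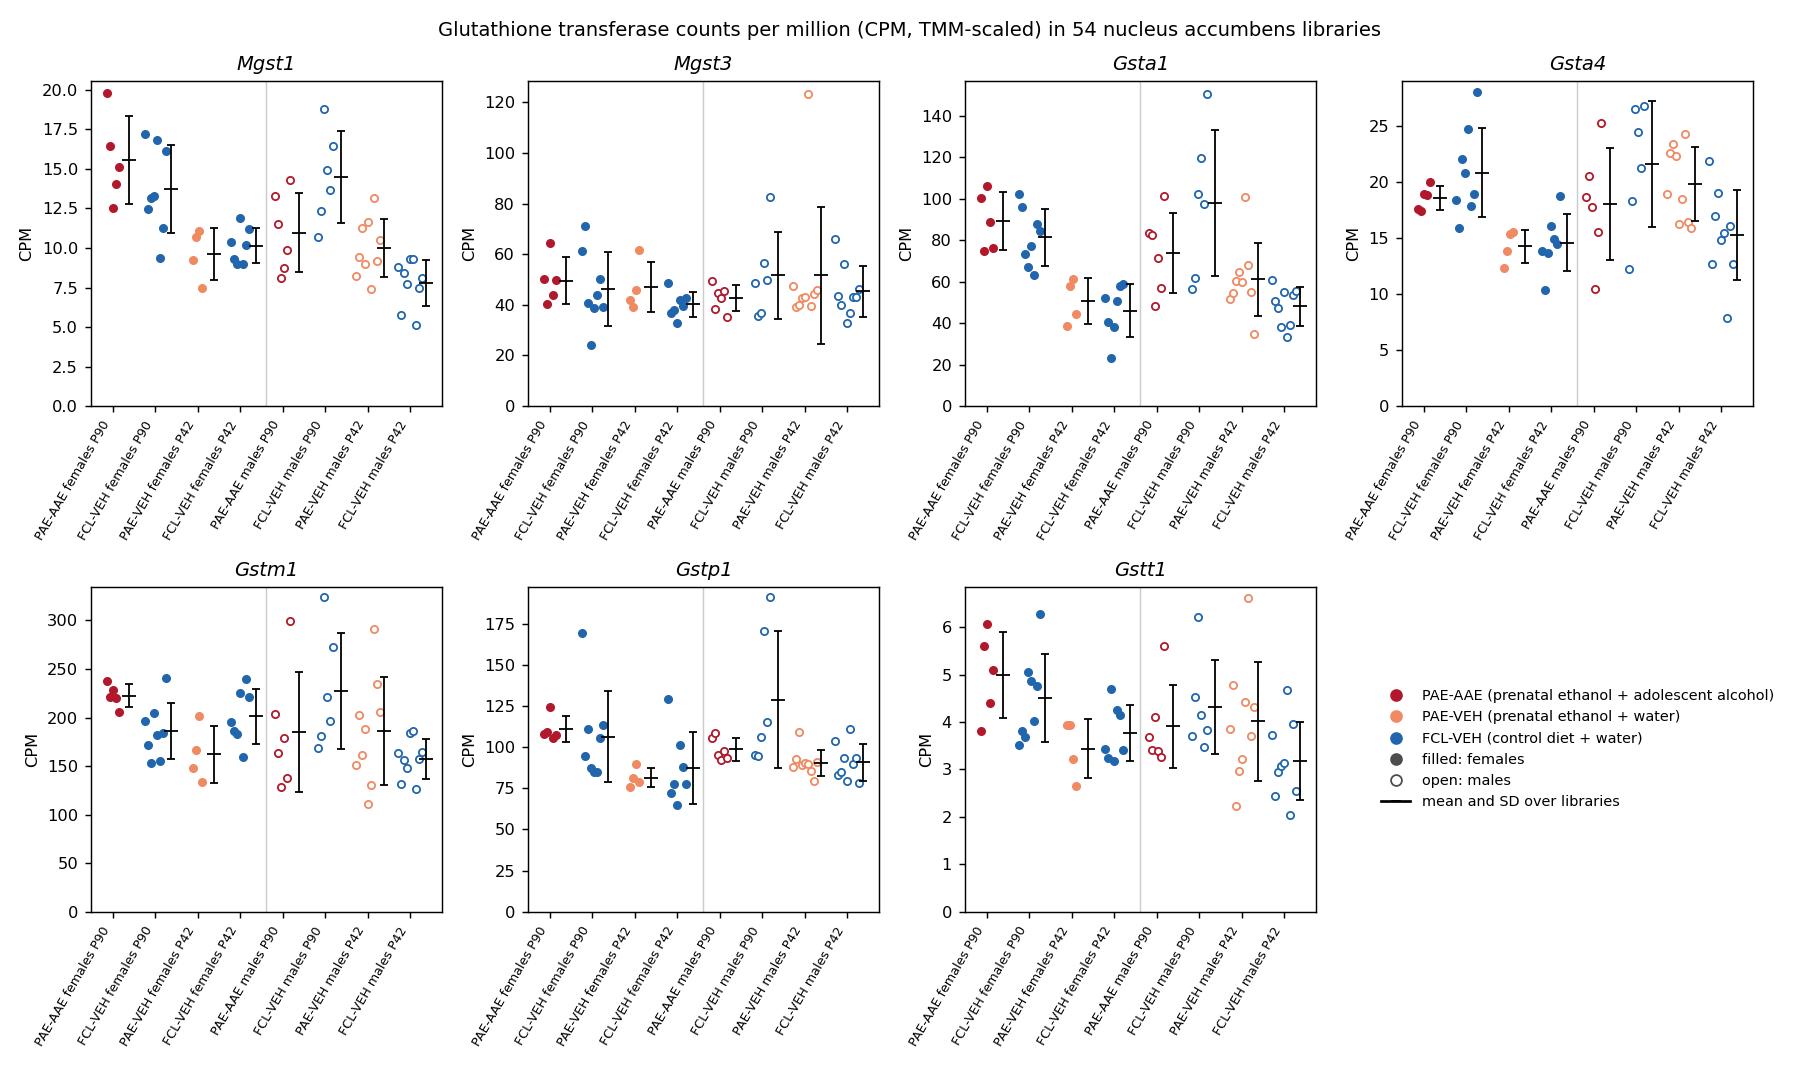
CPM (vertical axes, from 0) of each member in each library, by group, with females left and males right of the grey line; points are libraries and black marks the mean and SD. Gsta1 lay between 74.5 and 105.99 CPM in PAE-AAE females at P90, above the 38.5 to 61.3 CPM of PAE-VEH females at P42, and 1 PAE-VEH male library at P42 had 123.5 CPM of Mgst3.

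Among females, 3 members were higher in adults than in adolescents in at least 1 of the comparisons. Of the 7 members, 2 rose in PAE-AAE females at P90 against PAE-VEH females at P42, Gstp1 and Mgst1, and 1 rose in FCL-VEH females at P90 against P42, Gsta1. Among all genes tested, 2.17% passed in exposed females, 1.22% higher and 0.949% lower at P90, and 0.42% passed in control females, 0.224% higher and 0.195% lower. These calls come from edgeR's quasi-likelihood F test with Benjamini-Hochberg adjustment over all genes tested and a threshold of 0.05. Whether the values of 2 groups overlapped is given below as a description. The share of all genes whose groups did not overlap was not computed, so nothing particular to the members is read from it. The comparison in exposed females addresses age and adolescent alcohol together, and the one in control females addresses age with no alcohol in either group. In the latter, replicate 5 of the P42 group had sex markers against its label, and differences of litter between the ages are unknown.

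Gstp1, the pi-class enzyme that also binds the stress kinase JNK, had 107.9, 109.3, 124.6, 105.6 and 107.2 CPM in PAE-AAE females at P90, against 76, 81.1, 89.5 and 78.7 CPM in PAE-VEH females at P42. The highest adult value was that of replicate 3, and the groups did not overlap. Its log2 fold change was 0.44 ± 0.08 (SE), a fold of 1.36, with an adjusted p of 0.00391 in edgeR, and it passed in all 9 fits that left out 1 library. With all 54 libraries in 1 fit the change was 0.446 on the log2 scale and the adjusted p 0.192. In FCL-VEH females, Gstp1 ran from 84.8 to 169.2 CPM at P90 with a median of 100.2, against 64.9 to 129.4 CPM at P42 with a median of 77.5, and the groups overlapped. Its change there was 0.29 ± 0.16, with an adjusted p of 0.373 in edgeR, and 0.163 without replicate 1 of the P90 group.

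Mgst1 had 19.8, 16.4, 12.5, 14 and 15.1 CPM in PAE-AAE females at P90, against 9.25, 10.7, 11.1 and 7.45 CPM in PAE-VEH females at P42. Every adult value lay above every adolescent one. The log2 fold change was 0.69 ± 0.185, a fold of 1.62, with an adjusted p of 0.0483 in edgeR. That call was lost without any 1 of 8 libraries (replicates 1, 2, 4 and 5 at P90 and replicates 1 to 4 at P42), with adjusted p between 0.0541 and 0.167, and the change stayed between 0.589 and 0.769. It was also lost with no filter on low counts, at an adjusted p of 0.0661, and with all 54 libraries in 1 fit, at 0.0637. In FCL-VEH females, Mgst1 ran from 9.36 to 17.2 CPM at P90 with a median of 13.2, against 9 to 11.9 CPM at P42 with a median of 10.2. The ranges overlapped, and the change of 0.44 ± 0.14 had an adjusted p of 0.156 in edgeR.

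Gsta1, an alpha-class enzyme that conjugates and reduces products of lipid oxidation, ran from 63 to 102.2 CPM in FCL-VEH females at P90 with a median of 80.7, against 23.1 to 58.8 CPM at P42 with a median of 50.7. All 8 adult values lay above all 7 adolescent ones. The log2 fold change was 0.82 ± 0.19, a fold of 1.77, with an adjusted p of 0.0374 in edgeR. The call was lost without any 1 of 11 libraries (replicates 1, 2, 3, 5, 7 and 8 at P90 and replicates 1 to 5 at P42), with adjusted p between 0.052 and 0.0863, and the change stayed between 0.709 and 0.896 over all 15 fits. It was also lost without the 3 sex-mismatched libraries, at an adjusted p of 0.0831, without the 4 outlying libraries, at 0.0713, and with no filter on low counts, at 0.0515. In PAE-AAE females at P90, Gsta1 had 100.4, 74.5, 105.99, 88.9 and 76.1 CPM, against 38.5, 58.1, 61.3 and 44.5 CPM in PAE-VEH females at P42. These groups did not overlap either, and the change of 0.82 ± 0.23 had an adjusted p of 0.057 in edgeR, 0.00858 in DESeq2, 0.0166 in limma voom and 0.009 in edgeR without the outlying libraries. With 1 library left out, Gsta1 passed in 0 of 9 edgeR fits of this comparison, with adjusted p between 0.0578 and 0.233.

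The other members did not pass in females. Gsta4 had 17.6, 17.4, 18.9, 18.8 and 20.01 CPM in PAE-AAE females at P90, against 12.3, 13.9, 15.3 and 15.5 CPM in PAE-VEH females at P42, and Gstt1 had 3.8, 5.6, 6.06, 4.39 and 5.1 CPM, against 3.94, 3.94, 3.22 and 2.65 CPM. Gsta4 did not overlap between the groups, while Gstt1 did. Mgst3 had 50.1, 40.3, 64.3, 43.7 and 49.7 CPM in PAE-AAE females at P90, against 42, 39.3, 45.9 and 61.5 CPM in PAE-VEH females at P42, with both groups spread over the same range. In PAE-AAE females at P90 against PAE-VEH females at P42 the log2 changes were 0.53 ± 0.24 for Gstt1, 0.45 ± 0.23 for Gstm1, 0.38 ± 0.17 for Gsta4 and 0.07 ± 0.26 for Mgst3. The median over the 7 was 0.452, against -0.00723 over all genes tested. In FCL-VEH females at P90 against P42 they were 0.51 ± 0.17 for Gsta4, 0.26 ± 0.16 for Gstt1, 0.20 ± 0.18 for Mgst3 and -0.11 ± 0.12 for Gstm1. The median there was 0.291, against -0.00179 over all genes tested. Gstm1 had 238, 221, 228, 220 and 206 CPM in PAE-AAE females at P90, against 149, 167, 201 and 133 CPM in PAE-VEH females at P42. These 2 groups of Gstm1 values did not overlap, a description with no share of all genes to set it against. In FCL-VEH females it ran from 154 to 241 CPM at P90, against 159 to 240 CPM at P42, nearly the same range.

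In males the values of ethanol-exposed groups at the 2 ages overlapped for every member. Of the 7, 0 passed in PAE-AAE males at P90 against PAE-VEH males at P42 with edgeR, and DESeq2 and limma voom also called 0, while 1 had an unadjusted p under 0.05, as had 10.4% of all genes. Among all genes, 0.284% passed in this comparison, 0.0534% higher and 0.23% lower at P90. Mgst1 ran from 8.08 to 14.3 CPM at P90 with a median of 10.7, against 7.39 to 13.2 CPM at P42 with a median of 9.44, and its log2 change was 0.13 ± 0.14. Gsta1 ran from 48.3 to 101.2 CPM at P90 with a median of 76.7, against 34.9 to 100.9 CPM at P42 with a median of 59.9, and its change was 0.27 ± 0.17. Gstp1 had the smallest p of the 7, with a change of 0.12 ± 0.06 and an adjusted p of 0.466. The median change of the 7 was -0.00954, against 0.0043 over all genes tested.

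In control males the contrast is the one known when the members were chosen, and 2.53% of all genes passed in it, 1.93% higher and 0.603% lower at P90, from which nothing is read about the members. Mgst1 ran from 10.7 to 18.8 CPM in FCL-VEH males at P90 with a median of 14.3, against 5.14 to 9.32 CPM at P42 with a median of 8.07. Gsta1 ran from 56.6 to 150 CPM at P90 with a median of 99.8, against 33.4 to 60.6 CPM at P42 with a median of 50.6. The log2 differences were 1.03 ± 0.185 for Gsta1, 0.90 ± 0.14 for Mgst1, 0.53 ± 0.12 for Gstm1, 0.51 ± 0.16 for Gstp1, 0.50 ± 0.17 for Gsta4, 0.45 ± 0.16 for Gstt1 and 0.19 ± 0.18 for Mgst3. Whether the age contrasts of exposed and control males differ was not tested, because the difference would hold the contrast that chose the members.

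**Figure D3:**
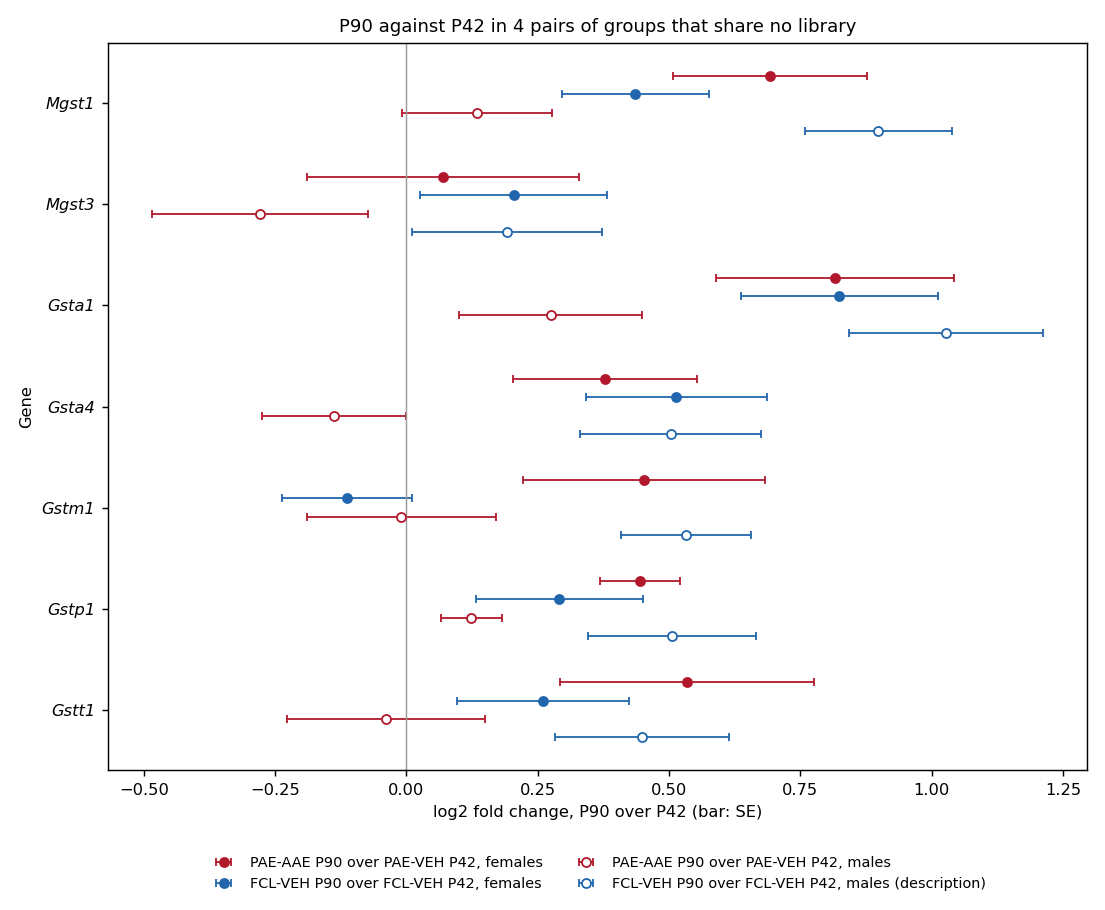
Log2 fold change of P90 over P42 (horizontal axis, bars 1 SE) for each member in exposed females, control females, exposed males and control males, from top to bottom within a gene. Gsta1 stood at 0.82 in both female pairs, 0.27 in exposed males and 1.03 in control males, where the values are a description.

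Other lists moved in the same female comparison. Of 25 ribosomal protein genes, 20 rose in PAE-AAE females at P90 against PAE-VEH females at P42 and none fell, with a median log2 change of 0.449, and with all 54 libraries in 1 fit 2 passed. An unadjusted p under 0.05 was found for 16.5% of all genes in this comparison and for 15.3% in FCL-VEH females at P90 against P42. Their summed level ran from 5310 to 6600 CPM in PAE-AAE females at P90, against 4110 to 4730 CPM in PAE-VEH females at P42. Of 14 astrocyte markers, 2 rose (3 without the sex-mismatched and 4 without the outlying libraries) and none fell, with a median of 0.316, and their sum ran from 9600 to 12200 CPM at P90, against 7430 to 9030 CPM at P42. Of 12 choroid plexus markers 0 passed in edgeR, DESeq2 or limma voom and 0 had an unadjusted p under 0.05, but their median was 1.59 and their sum ran from 41.7 to 3870 CPM at P90, against 61.2 to 636 CPM at P42. Of 12 mature oligodendrocyte markers 1 fell, with a median of -0.287 and a sum of 8950 to 17300 CPM at P90, against 12100 to 16400 CPM at P42. Of 8 oligodendrocyte precursor markers 2 passed, and 2 under each of the 7 other settings. Their sum ran from 574 to 856 CPM at P90, against 590 to 763 CPM at P42. Of 10 microglia markers 1 passed, 4 in limma voom and 0 with all 54 libraries in 1 fit. The share of all genes that passed was 2.17%. In FCL-VEH females at P90 against P42, the medians were 0.274 for the ribosomal and 0.274 for the astrocyte list. Of the ribosomal list 0 passed in edgeR, DESeq2 or limma voom and 17 had an unadjusted p under 0.05, and of the astrocyte list 0 passed in edgeR, 2 in DESeq2 and 3 in limma voom, with 7 at an unadjusted p under 0.05. Also in these females, 1 of 12 mature oligodendrocyte markers passed, and it fell, with a list median of -0.574, while 0 passed without the sex-mismatched and 3 without the outlying libraries. Of 8 oligodendrocyte precursor markers 3 passed in these females, and 2 or 3 under each other setting, against 0.42% of all genes with the main setting. Their sum ran from 481 to 1020 CPM at P90, against 577 to 1200 CPM at P42. There the ribosomal sum ran from 3900 to 7010 CPM at P90, against 3980 to 5000 CPM at P42, and the astrocyte sum from 8250 to 10700 CPM, against 8040 to 8990 CPM. All markers of these lists had reads in every library, and their part in the members' values was not tested.

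Genes that work beside the 7 were described from lists of the pathway. The share of all genes that passed in exposed females at P90 against P42 was 2.17%, with 1.22% higher at P90. In PAE-AAE females at P90 against PAE-VEH females at P42, 2 of 19 other family genes tested rose and none fell. They were the mu-class genes Gstm5, by 0.60 ± 0.11 (adjusted p of 0.00466 in edgeR), and Gstm7, by 0.45 ± 0.11 (adjusted p of 0.0375). Of 20 peroxidases, redoxins and dismutases 2 rose, Prdx6, a peroxiredoxin that reduces phospholipid peroxides with the pi-class transferase as its partner, by 0.47 ± 0.11 (adjusted p of 0.0238 in edgeR), and Sod1, the cytosolic superoxide dismutase, by 0.36 ± 0.09. Among the genes for conjugate export and mercapturate formation Acy1, an aminoacylase, rose by 0.37 ± 0.09 (adjusted p of 0.0315 in edgeR). Of 20 Nrf2 targets including Nfe2l2, 1 rose, the ferritin heavy chain Fth1, by 0.53 ± 0.14 (adjusted p of 0.0498 in edgeR). Of 13 other detoxification enzymes 1 rose, the sulfotransferase Sult1a1, by 1.19 ± 0.29 (adjusted p of 0.0297 in edgeR). With all 54 libraries in 1 fit, 1 other family gene and 1 detoxification enzyme passed and no gene of the other lists, and without the outlying libraries 4 other family genes, 4 peroxidases and 3 Nrf2 genes passed. Without the sex-mismatched libraries 0 Nrf2 genes passed. With no filter on low counts 0 Nrf2 genes and 0 export genes passed, with 1 other family gene and 1 peroxidase. Of 15 genes for glutathione synthesis and recycling 0 passed in edgeR, DESeq2 or limma voom. At an unadjusted p under 0.05 there were 2 of these 15, against 16.5% of all genes. The smallest p were those of Ggct, with a change of 0.27 ± 0.11, and the glutamate and cysteine carrier Slc1a1, with -0.21 ± 0.09.

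In FCL-VEH females at P90 against P42, 1 gene of these lists passed in edgeR, where 0.42% of all genes passed. It was Sult1a1, by 0.88 ± 0.20 (adjusted p of 0.0374 in edgeR). That call was lost with no filter, without the sex-mismatched libraries and without the outlying ones. In DESeq2 1 export gene and 2 other detoxification enzymes passed, and 2 of each passed in limma voom and with all 54 libraries in 1 fit. The list medians were 0.204 for 18 other family genes, 0.143 for the peroxidases, redoxins and dismutases, 0.108 for the Nrf2 list, 0.0642 for glutathione synthesis and recycling and 0.0389 for export. In PAE-AAE males at P90 against PAE-VEH males at P42 0 genes of these lists passed in edgeR, while 1 of the 15 genes for glutathione synthesis and recycling passed in DESeq2 and in limma voom, and 1 in edgeR without the sex-mismatched libraries and without the outlying ones. Among all genes 0.284% passed in edgeR in this comparison. Of the 19 other family genes 14 had a change below 0, where the median over all genes tested was 0.0043. The share of all genes below 0 was not computed, so nothing is read from that count. At an unadjusted p under 0.05 there were 1 of 19 other family genes, 2 synthesis genes, 1 export gene, 4 of 20 peroxidases, 0 Nrf2 genes and 1 other detoxification enzyme. The share of all genes at that level was 10.4%. Idh1, which supplies the NADPH used to recycle glutathione, came closest there at -0.32 ± 0.07 (adjusted p of 0.0644).

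Prenatal ethanol alone was compared in adolescents. In PAE-VEH males against FCL-VEH males at P42, 0 of the 6 members other than Mgst1 passed in edgeR, against a background of 0% of all genes. DESeq2 and limma voom also called 0 of the 6. At an unadjusted p under 0.05 there were 2 of these 6, Gsta4 and Gsta1, against 8.96% of all genes. Gsta4 ran from 15.9 to 24.3 CPM in PAE-VEH males with a median of 18.9, against 7.86 to 21.9 CPM in FCL-VEH males with a median of 15.5. Its log2 change was 0.38 ± 0.14 with an adjusted p of 0.442 in edgeR, and all 9 exposed libraries lay above the control median. Mgst1 ran from 7.39 to 13.2 CPM in PAE-VEH males with a median of 9.44, against 5.14 to 9.32 CPM in FCL-VEH males, a difference of 0.36 ± 0.12 on the log2 scale. Gsta1 stood at 0.35 ± 0.17 on the log2 scale, Gstt1 at 0.35 ± 0.17, Gstm1 at 0.25 ± 0.13 and Mgst3 at 0.20 ± 0.18, none of which passed. Without the outlying libraries Mgst3 stood at -0.0837, because its highest value, 123.5 CPM, belongs to replicate 6 of PAE-VEH males. Gstp1 averaged 90.6 ± 7.91 CPM in PAE-VEH males and 90.7 ± 11 CPM in FCL-VEH males (SD, n = 9 each), and the 95% interval of its log2 change ran from -0.185 to 0.185.

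In PAE-VEH females against FCL-VEH females at P42, 0 of 7 passed in edgeR, DESeq2 or limma voom, with a background of 0% in edgeR, and 0 had an unadjusted p under 0.05, against 11.3% of all genes. Gstm1 had 149, 167, 201 and 133 CPM in PAE-VEH females, against 159 to 240 CPM with a median of 195 in FCL-VEH females. Its log2 change of -0.31 ± 0.18 had the smallest p of the 7, with an adjusted p of 0.511 in edgeR. The median change of the 7 was -0.079. The difference between the sexes in the effect of prenatal ethanol was tested, and 0 of the 6 members other than Mgst1 passed in edgeR. The background was 0% of all genes in edgeR, where DESeq2 called 72 genes and limma voom 81. Of these 6 members, 1 had an unadjusted p under 0.05, as had 10.6% of all genes. That was Gstm1, at -0.56 ± 0.225 on the log2 scale as female minus male (adjusted p of 0.391 in edgeR). Mgst1 stood at -0.44 ± 0.20, a description, since the difference holds the FCL-VEH males at P42.

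In adults with both exposures the male values pointed the other way and did not pass either. In PAE-AAE males against FCL-VEH males at P90, 0 of the 6 members other than Mgst1 passed in edgeR, DESeq2 or limma voom. The background was 0% of genes in edgeR, and 2 of these 6 had an unadjusted p under 0.05, as had 8.74% of all genes. All 7 log2 changes were below 0, with a median of -0.298, against 0.0108 over all genes tested. Mgst1 ran from 8.08 to 14.3 CPM with a median of 10.7 in PAE-AAE males, against 10.7 to 18.8 CPM with a median of 14.3 in FCL-VEH males, a difference of -0.40 ± 0.17 on the log2 scale. Gstp1 ran from 91.9 to 108.8 CPM in PAE-AAE males, all below the FCL-VEH median of 110.6 CPM, and from 94.7 to 191 CPM in FCL-VEH males, a change of -0.39 ± 0.16 with an adjusted p of 0.552 in edgeR. Gsta1 ran from 48.3 to 101.2 CPM in PAE-AAE males, against 56.6 to 150 CPM in FCL-VEH males, a change of -0.41 ± 0.20 with an adjusted p of 0.57. The control libraries of both male comparisons are the FCL-VEH males in which Mgst1 was already known to be high at P90 and low at P42, so the signs of these 2 comparisons are not independent of the choice of members.

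Marker lists had medians on both sides of 0 in males. In PAE-AAE males against FCL-VEH males at P90 all 25 ribosomal protein genes had a change below 0, with a median of -0.367; 0 passed in edgeR, DESeq2 or limma voom and all 25 had an unadjusted p under 0.05. Their sum ran from 4000 to 5200 CPM in PAE-AAE males, against 4510 to 8440 CPM in FCL-VEH males. All 14 astrocyte markers were below 0, with a median of -0.171 and a sum of 7060 to 9730 CPM in PAE-AAE males, against 7920 to 10300 CPM in FCL-VEH males. The choroid plexus median was -0.925 and the microglia median -0.5, with 11 of 12 and 10 of 10 markers below 0. The endothelial and pericyte median was 0.354, with 9 of 9 markers above 0, and the meningeal median 0.593, with 8 of 10 above 0. Of 12 mature oligodendrocyte markers 0 passed in edgeR, DESeq2 or limma voom. In edgeR 4 of them had an unadjusted p under 0.05, as had 8.74% of all genes. Their sum ran from 7420 to 13900 CPM in PAE-AAE males, against 8470 to 33000 CPM in FCL-VEH males. In PAE-VEH males against FCL-VEH males at P42, all 25 ribosomal genes were above 0 with a median of 0.177, and 13 of 14 astrocyte markers were above 0 with a median of 0.171. All 10 meningeal markers were above 0 there, with a median of 1.16. Their sum ran from 47.2 to 1340 CPM in PAE-VEH males (median 92.4), against 49.7 to 225 CPM in FCL-VEH males (median 78.7). Of the endothelial and pericyte markers 8 of 9 were below 0, with a median of -0.25. The choroid plexus median was -0.223. The choroid plexus sum ran from 67.1 to 1300 CPM in PAE-VEH males (median 156), against 20.8 to 1940 CPM in FCL-VEH males (median 89.1). Of 12 mature oligodendrocyte markers 8 were below 0 in this comparison, with a median of -0.025. The share of all genes above or below 0 was not computed, so nothing particular to a list is read from these counts by sign. The part of these lists in the members' values was not tested.

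In PAE-AAE females against FCL-VEH females at P90, 0 of 7 passed in edgeR, DESeq2 or limma voom, with a background of 0% in edgeR, and 0 had an unadjusted p under 0.05, against 4.23% of all genes. Gstm1 had 238, 221, 228, 220 and 206 CPM in PAE-AAE females, against 154 to 241 CPM with a median of 183 in FCL-VEH females, a log2 change of 0.26 ± 0.17. All 5 exposed libraries lay above the control median, and the groups overlapped. Gsta1 stood at 0.13 ± 0.19, Mgst1 at 0.18 ± 0.17, Gstp1 at 0.06 ± 0.16 and Gsta4 at -0.17 ± 0.18. The difference between the sexes at P90, as female minus male, was 0.56 ± 0.24 for Gstm1 (adjusted p of 0.432 in edgeR) and 0.54 ± 0.275 for Gsta1 (adjusted p of 0.488). For Mgst1 it was 0.59 ± 0.24, a description, since it holds the FCL-VEH males at P90. Of the 6 members other than Mgst1, 0 passed in edgeR, DESeq2 or limma voom, with a background of 0% in edgeR. Among these 6, 1 had an unadjusted p under 0.05, as had 10.6% of all genes. Averaged over the sexes, Mgst1 is again a description. Of the 6 other members, 0 passed at P42 in edgeR, DESeq2 or limma voom, with a background of 0% in edgeR. At P90 0 of these 6 passed either, where 0.00416% of genes passed in edgeR. At neither age did any of the 6 have an unadjusted p under 0.05, against 10.9% of all genes at P42 and 3.26% at P90.

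**Figure D4:**
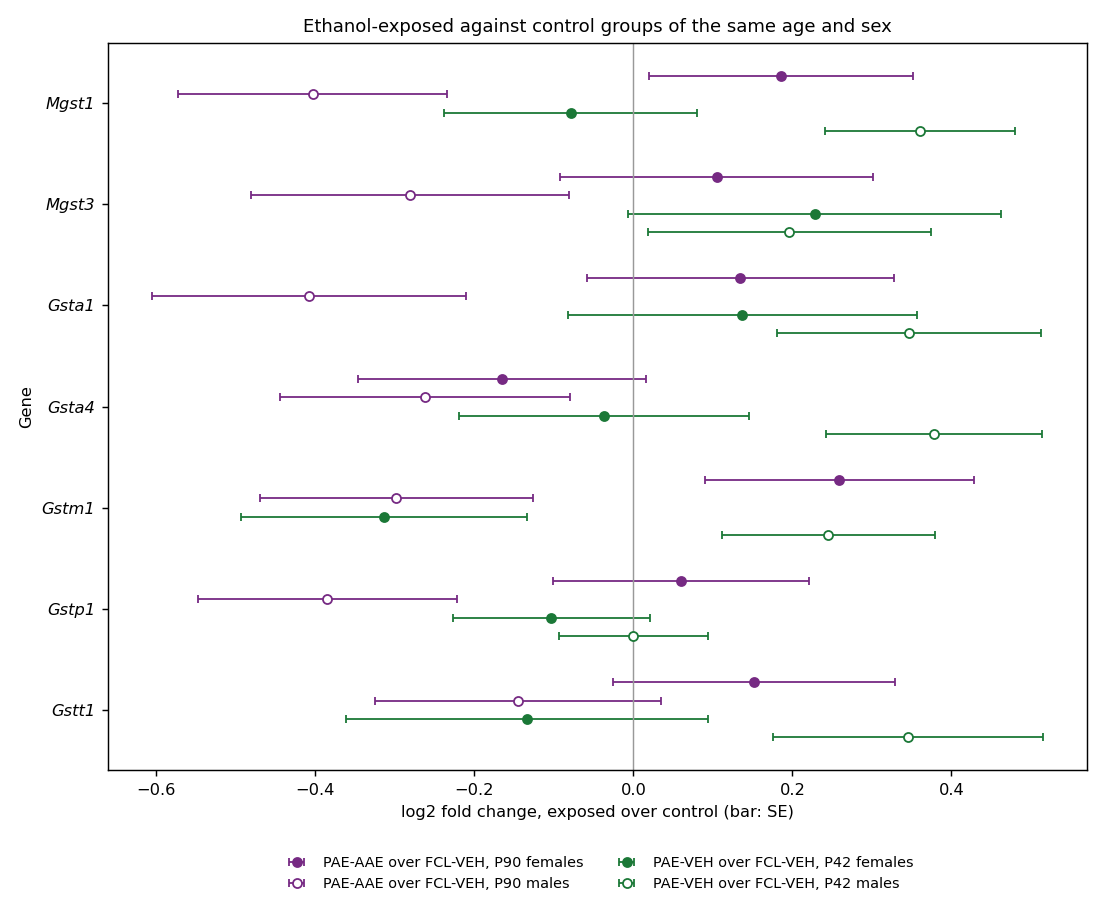
Log2 fold change of exposed over control (horizontal axis, bars 1 SE) for each member in P90 females, P90 males, P42 females and P42 males, from top to bottom within a gene. Mgst1 stood at 0.18, -0.40, -0.08 and 0.36 in that order, where its male values are a description, and none of the tested changes passed the threshold.

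Under ethanol 0 genes of the pathway lists passed in edgeR in any sex and age, 0 passed in limma voom, and DESeq2 called 1 of 13 other detoxification enzymes in P42 males. At an unadjusted p under 0.05 there were 5 of 18 other family genes in P42 males, 3 of 18 in P42 females, 6 of 19 in P90 males and 1 of 19 in P90 females. The share of all genes at that level was 8.96%, 11.3%, 8.74% and 4.23% in the same order. In PAE-VEH males against FCL-VEH males at P42, Gstm5 stood at 0.26 ± 0.07 (adjusted p of 0.308 in edgeR) and Sult1a1 at 0.81 ± 0.20 (adjusted p of 0.263). Of 20 peroxidases, redoxins and dismutases 19 were above 0 there, where the median over all genes tested was 0.0101. In PAE-VEH females against FCL-VEH females at P42 the smallest p included those of the sulfiredoxin Srxn1, at 0.40 ± 0.12 (adjusted p of 0.219), and of Nfe2l2 itself, at -0.36 ± 0.12 (adjusted p of 0.265). In PAE-AAE males against FCL-VEH males at P90, Gstm5 stood at -0.51 ± 0.15 and Prdx1 at -0.57 ± 0.18 (adjusted p of 0.552 each). Of 20 peroxidases, redoxins and dismutases 18 were below 0 there, where the median over all genes tested was 0.0108. The share of all genes above or below 0 was not computed, so nothing particular to this list is read from its counts by sign. In PAE-AAE females against FCL-VEH females at P90, Gstm7 stood at 0.29 ± 0.13 and Sult1a1 at 0.50 ± 0.20 (adjusted p of 1 each).

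Females were compared with males among controls. The 16 libraries at P42 are grouped by their labelled sex, and in 2 of them Xist and the Y-linked genes went against it, replicate 5 of FCL-VEH females and replicate 8 of FCL-VEH males. At P42, 0 of the 6 members other than Mgst1 passed in edgeR, DESeq2 or limma voom, and 0 in edgeR without these 2 libraries. Among all genes 0% passed in edgeR with all libraries, and 13 genes passed without the sex-mismatched ones, while DESeq2 and limma voom called 7 each with all libraries. Gstm1 ran from 159 to 240 CPM in FCL-VEH females, against 126.8 to 186 CPM in FCL-VEH males, a difference of 0.36 ± 0.12 with an adjusted p of 0.714 in edgeR. It was the 1 member of the 6 other than Mgst1 with an unadjusted p under 0.05, which 6.08% of all genes had. Without the 2 libraries Gstm1 ran from 182.9 to 240 CPM in females, against 126.8 to 186 CPM in males, a difference of 0.411 with an adjusted p of 0.494. Mgst1 is a description here, since the FCL-VEH males at P42 are among the libraries that chose the members. It ran from 9 to 11.9 CPM in FCL-VEH females, against 5.14 to 9.32 CPM in FCL-VEH males, a log2 difference of 0.38 ± 0.14, and 0.41 without the 2 libraries. At P90, 0 of the 6 members other than Mgst1 passed in edgeR, DESeq2 or limma voom. Among all genes 0.0499% passed in edgeR there, 0.0166% higher and 0.0332% lower in females. Of the 6 members, 1 had an unadjusted p under 0.05, as had 5.85% of all genes. That was Gstm1, at 154 to 241 CPM in FCL-VEH females against 168.8 to 324 CPM in FCL-VEH males, a difference of -0.29 ± 0.13 with an adjusted p of 0.818.

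The members did not vary as a single block across the 54 libraries, which share depth and group. On log2 CPM, Mgst1 and Gstm1 had a Pearson r of 0.686, Mgst1 and Gsta1 one of 0.66, and Gsta1 and Gstp1 one of 0.644. Mgst3 stood apart, with r from -0.172 with Gstm1 to 0.413 with Gstp1. After group means were subtracted, Mgst1 and Gstm1 kept an r of 0.649, while Mgst1 and Gsta1 had 0.343 and Gsta1 and Gstp1 0.426. These coefficients describe the libraries and carry no p.

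The genes most like each member were found among 14453 genes by Pearson r of log2 CPM over the same 54 libraries. For Mgst1 they were Nqo1, a quinone reductase (r = 0.836), Ctso, a cathepsin (0.817), and Sdc4, a syndecan (0.81). For Gsta1 they were the calcium-binding S100a1 (0.858), the immunoproteasome subunit Psmb8 (0.855) and S100b (0.84). For Gstp1 they were Csrp1 (0.932), the mitochondrial kinase Pink1 (0.926) and the lipid kinase Pip4k2a (0.918). For Gstm1 they were Ccdc34 (0.892), Pdlim4 (0.868) and the monoamine oxidase Maob (0.857), and for Mgst3 Cdc34, a ubiquitin-conjugating enzyme (0.907), the actin regulator Cfl1 (0.904) and Ehd3 (0.9). Gsta4 had weaker neighbours, Psme1 (0.741), Tmed10 (0.696) and the zeta-class transferase Gstz1 (0.691), as had Gstt1, with the peptide-loading genes Tapbpl (0.669) and Tapbp (0.663) and with Thnsl2 (0.647). Without the 4 outlying libraries the same pairs kept an r between 0.614 for Gstt1 with Thnsl2 and 0.94 for Gstp1 with Csrp1. After group means were subtracted, r lay between 0.522 for Gstt1 with Tapbpl and 0.935 for Mgst3 with Cfl1. It then stood at 0.682 for Gsta1 with Psmb8, 0.658 for Mgst1 with Ctso and 0.565 for Gsta4 with Gstz1.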

How the data were processed

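Raw read counts per gene and FPKM values were deposited by the authors in 1 table for the 54 libraries. Per the labels' protocols, libraries from total RNA were not strand-specific, and all share 1 batch label. The submitters' processing notes name fastp and HISAT2 2.0.5; the counter is not given in the sources used here. Rows without a gene name (720, between 0.271% and 0.412% of counts) were left out. Groups came from the titles; nothing says that each library is a separate animal, so p-values measure the spread between libraries. In all, 4 fits of 4 groups each (adolescent, adult, control, exposed) were run on counts with edgeR 4.0.16 in R 4.3.3: TMM, default filter by group, quasi-likelihood F test, two-sided, Benjamini-Hochberg over all genes tested, threshold 0.05. DESeq2 1.42.0, limma 3.58.1 voom, other scaling, no filter and left-out libraries were alternatives; the procedure was tested on simulated counts. An outlying library lay over 3 median absolute deviations below the median correlation with its group. No molecular identifiers are named, so precision from depth covers counting only. The members and gene lists were chosen with earlier results of these data known. Beyond the 7 members, named genes were, per list, up to 4 past the threshold with the largest change or up to 2 with the smallest p, and the 3 genes most correlated with each member (mean of at least 1 CPM). A result on a listed gene is not reported here.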

Additional observations from a re-analysis of the deposited data

Results flagged for a closer look

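In each group of 4 to 10 libraries the highest and lowest CPM of each member were set against the gap to their nearest neighbour (Dixon's criterion at the 95% level). Of 56 sets of values 6 were flagged, where chance flags about 1 in 20. Mgst3 had 123.47 CPM in replicate 6 of PAE-VEH males at P42, against 39.1 to 47.3 CPM in the other 8. Gsta1 had 100.91 CPM in the same library, against 34.9 to 68.1 CPM in the others. That library also had the highest Slc17a7 count of all, 1185 CPM against a median of 25.4 CPM over the 54 libraries, and a cortical excitatory neuron marker sum of 1780 CPM. It had its group's highest scores, meaning the highest marker levels, for the meningeal (3.7), microglia (0.662), endothelial (0.66), ribosomal (0.211) and astrocyte lists (0.18). Its ependymal score was the group's lowest, at -2.64. The part of these lists in the Mgst3 and Gsta1 values was not tested. Gstp1 was flagged in 3 groups: 124.6 CPM in replicate 3 of PAE-AAE females at P90, against 105.59 to 109.25 CPM in the others, 109.01 CPM in replicate 3 of PAE-VEH males at P42, against 79.6 to 93 CPM, and 169.24 CPM in replicate 1 of FCL-VEH females at P90, against 84.8 to 113.52 CPM. The last of these libraries had the lowest Drd1 value of all 54, 115.3 CPM. Each of the 3 libraries also had its group's highest score for mature oligodendrocyte markers, where a higher score means higher marker levels. It was 0.226 in the PAE-AAE female library (group median -0.328) and 0.88 in the PAE-VEH male library (0.267). In the FCL-VEH female library it was 0.609 (group median -0.576). In the same order, these libraries also had their group's highest score for oligodendrocyte precursor markers, 0.0574, 0.595 and 0.347. Other lists were at their group's highest too. They were choroid plexus markers in the PAE-AAE female (1.76) and PAE-VEH male library (1.57), and cortical excitatory neuron markers in the former (2.5). In the FCL-VEH female library they were the astrocyte (0.42), microglia (0.948) and ribosomal lists (0.521). The part of any of these lists in the Gstp1 values was not tested. Gstt1 had 5.596 CPM in replicate 6 of PAE-AAE males at P90, against 3.27 to 4.11 CPM in the others.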

How the results depend on the processing

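Of 98 log2 changes of the members, between 92 and 97 kept their direction and their side of the threshold under each of the 7 other settings, and of 546 values with a single library left out 511 did. For age in control males, which has no threshold, a shift under 1 SD of the P90 group was counted instead. These counts include Mgst1 where it is a description. Single libraries were left out for the age comparisons and for ethanol within females, not for ethanol within males or between the sexes. The count of members past the threshold was 0 instead of 1 for age in control females with no filter, without the 3 sex-mismatched libraries and without the 4 outlying ones, and it ranged from 0 to 1 with 1 library left out. For age in exposed females it was 1 instead of 2 with no filter and 0 with all 54 libraries in 1 fit, and from 1 to 2 with 1 library left out. The cause was not tested. Signs turned only for changes that had not passed. Gstp1 under prenatal ethanol in P42 males stood at -0.00712 with relative log expression factors and in DESeq2, -0.0063 with no filter and -0.0018 with all 54 libraries. Without the outlying libraries Mgst3 stood at -0.0837 in that comparison and at 0.0456 for age in exposed males. Gstt1 at P90 over both sexes stood at -0.0135 in voom and -0.0165 without outlying libraries, and Gsta4 between the sexes in P90 controls at 0.0883 and 0.0427. With 1 library left out, prenatal ethanol in P42 females ranged from -0.149 to 0.0316 for Mgst1, -0.104 to 0.0373 for Gsta4 and -0.155 to 0.0178 for Gstp1. Mgst3 ranged from -0.0113 to 0.217 for ethanol in P90 females and from -0.0435 to 0.226 for age in exposed females, and for age in exposed males Gstm1 ranged from -0.201 to 0.0902 and Gstt1 from -0.173 to 0.0771. The genes past the threshold for age in exposed females numbered 529, between 121 (all 54 libraries) and 1797 (voom) under other settings and as few as 74 without replicate 1 of PAE-VEH females at P42. For age in control females they numbered 54 higher and 47 lower, between 43 and 349 in all under other settings and between 60 and 290 with 1 library left out. For age in exposed males there were 69, between 60 and 231 under other settings and as few as 41 with 1 library left out, and for age in control males 610, between 322 and 1166 under other settings, with 176 without replicate 4 of the P90 group, 1207 without its replicate 2 and 17.4% of the 610 without its replicate 6. Under ethanol, DESeq2 called 24 genes in P42 males, 86 in P42 females, 2 in P90 males and 8 in P90 females, where edgeR called 0, and limma voom called 36 in P42 females and 1 in each of the other 3. For the sex difference in the effect at P42 DESeq2 called 72 and voom 81, against 0 in edgeR. No paired analysis was possible because the replicate numbers follow only the order of deposition.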
